A study of Mus musculus with 4 samples.

Results

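The 88 genes described here encode the enzymes that write and erase chemical marks on histones and DNA: DNA methyltransferases and TET dioxygenases, histone lysine and arginine methyltransferases, lysine demethylases, acetyltransferases, deacetylases and sirtuins, with the PRDM family. They were picked by name, as all genes of the deposited region table whose symbol begins with one of the usual stems (Kdm, Kmt, Setd, Nsd, Hdac, Sirt, Kat, Dnmt, Tet, Prmt, Prdm) or is a listed single gene such as Ezh2, Eed, Suz12, Ep300 or Crebbp. They are 88 of the 15091 genes named in the table, and their 158 regions are 158 of its 29119 nuclear regions. The set is wider than methylation enzymes, since it holds acetylation and deacetylation enzymes too. Most PRDM proteins act as zinc-finger transcription factors, and Dnmt3aos is an antisense transcript, not an enzyme.

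Chromatin accessibility was measured by ATAC-seq, in which the transposase Tn5 cuts and tags open DNA, in neurospheres. These are floating clusters of neural progenitor cells, here grown for 7 days with FGF-2 and EGF, each at 20 ng/ml, from the hippocampus of C57BL/6 mice at P0. The 2 control cultures had the genotype hGFAPCre+, Fgf13+/y and the 2 Fgf13cko cultures hGFAPCre+, Fgf13 flox/y, so Cre was present in all 4. The human GFAP promoter drives Cre in radial glia and their descendants, so deletion is limited to cells in which it has been active. The cells of 1 mouse went into 2 wells. Whether cultures of a group derive from different mice is not stated in the labels, so each p-value reflects only how far these samples scatter, and that scatter may be technical. FGF13 is an intracellular FGF homologous factor, and the design asks what its loss does to accessible chromatin.

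Histone-modifying enzymes set the state of chromatin from which neural progenitors draw their programmes. The PRC2 complex, with EZH2 or EZH1 as its catalytic subunit and EED and SUZ12 as core partners, methylates lysine 27 of histone H3 and holds genes of later stages silent, and KDM6A and KDM6B remove that mark. DNA methylation is laid down by DNMT3A and DNMT3B, copied at replication by DNMT1 and oxidised by the TET enzymes. An ATAC-seq region at such a gene reports how open its DNA is, not how much enzyme is made.

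Sequencing depth and library quality set limits to what could be seen. Libraries had 24.9 and 26.0 M tags in the controls and 16.8 and 13.1 M in Fgf13cko, so total depth differed with genotype. The nuclear regions held 2.78 and 3.25 M against 2.55 and 2.63 M, or 11.2 and 12.5% against 15.2 and 20.0% of the totals. The enzyme genes' regions took 0.678 and 0.684% of the nuclear tags in the controls and 0.674 and 0.640% in Fgf13cko. Their promoter regions took 0.465 and 0.481% against 0.437 and 0.395%. The part of depth in the results was not tested. Mitochondrial DNA held 67.7 and 68.4% of the tabulated tags in the controls against 38.5 and 31.5% in the Fgf13cko libraries, so this share moved with genotype; its part in the results was not tested. The Fgf13cko libraries were less alike than the controls, with a correlation of log2 promoter sums of 0.908 against 0.970. That gap followed the width of the regions. Over all promoter sums narrower than 800 bases, a split chosen after the values were seen, the median log2 ratio of Fgf13cko replicate 1 to replicate 2 was -0.51, and over wider ones 0.11. The enzyme genes showed the same split, at -0.65 for 15 narrow and 0.16 for 58 wide promoter sums. The difference between the groups followed width too. Its median was -0.43 for the narrow and -0.01 for the wide enzyme promoter sums, beside -0.23 and 0.04 over all promoter sums. The 15 narrow ones are Ezh1, Nsd3, Setd2, Prdm4, Prdm11, Prmt2, Prmt3, Hdac1, Hdac4, Hdac6, Hdac8, Hdac10, Kat8, Kdm4b and Sirt4. A fit with an offset for region width was therefore added, and is given beside the counts below.

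The labelled cells and the targeted gene were checked in the same table. Of 12 neural stem cell markers, 11 had a promoter region, Sox2, Nes and Pax6 among them. Of 7 microglial markers 1 had a promoter region and of 6 endothelial and pericyte markers 2 did, with summed promoter counts of 11.1 to 39.0 and 88.9 to 104 per library. Several marker lists moved with genotype: the promoters of Fabp7 and Nes rose, as did those of the neuronal genes Map2 and Syt1, which are 2 of 8 neuronal promoters tested, and the distal sum of Gfap fell. Summed neuronal promoter counts were 820.3 and 819 in the controls and 1033 and 1098 in the Fgf13cko libraries, whereas the list's distal counts overlapped, with 1251 and 1339 against 1312 and 1238, and 1 of its 8 distal sums rose and 1 fell. Whether these shifts contribute to the values below was not tested, and in bulk cultures a changed number of cells of one type and a changed accessibility per cell cannot be told apart. The 4 regions named for Fgf13 had adjusted p-values of 0.0980 to 0.998. The labels do not say which part of Fgf13 is floxed, so accessibility there does not check the deletion.

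Most of these genes had an open region near the start site, as did most genes named in the table. A total of 73 of the 88 had a promoter region, meaning a region centred within 1000 bases of the start site used by the table. Among all 15091 genes named there, 11163 did. At least 1 distal region farther away was found for 44 of the 88, 29 genes having both. Counts were summed per gene over promoter regions and, separately, over distal regions, and normalised for library size. All 73 promoter sums, all 44 distal sums and all 158 regions passed the filter on low counts. In the authors' own peak lists, which were called in each library alone, 79, 79, 78 and 79 of the 88 genes had a peak within 1000 bases of the start in control 1, control 2, Fgf13cko 1 and Fgf13cko 2. Of the 15 genes with no promoter region, 4 had such a peak in all 4 libraries and 6 in none. When the peak had to overlap the start itself, 57 of the 88 had one in all 4 libraries and 18 in none.

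Per kb of region, control promoter levels spanned a wide range. Kat6b, an acetyltransferase of histone H3, was highest with 684 normalised counts per kb, followed by the class IIa deacetylase gene Hdac4 with 644 and the demethylase gene Kdm4b with 514. Kdm1a, whose product LSD1 demethylates lysine 4 of H3, was lowest with 21.8, below the H3K9 methyltransferase gene Setdb1 with 28.5 and Prdm6 with 29.9. The Kdm1a level lay at the 0.297th percentile of all promoter sums and the Kat6b level at the 99.7th. Neighbours in this order did not differ beyond their spread at either end: the controls had 654 and 714 for Kat6b and 671 and 618 for Hdac4, and 18.3 and 25.2 for Kdm1a and 23.7 and 33.4 for Setdb1. The genes whose 4 points lay farthest apart included Prdm4 and Kdm4b, both with regions under 800 bases.

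**Figure D1:**
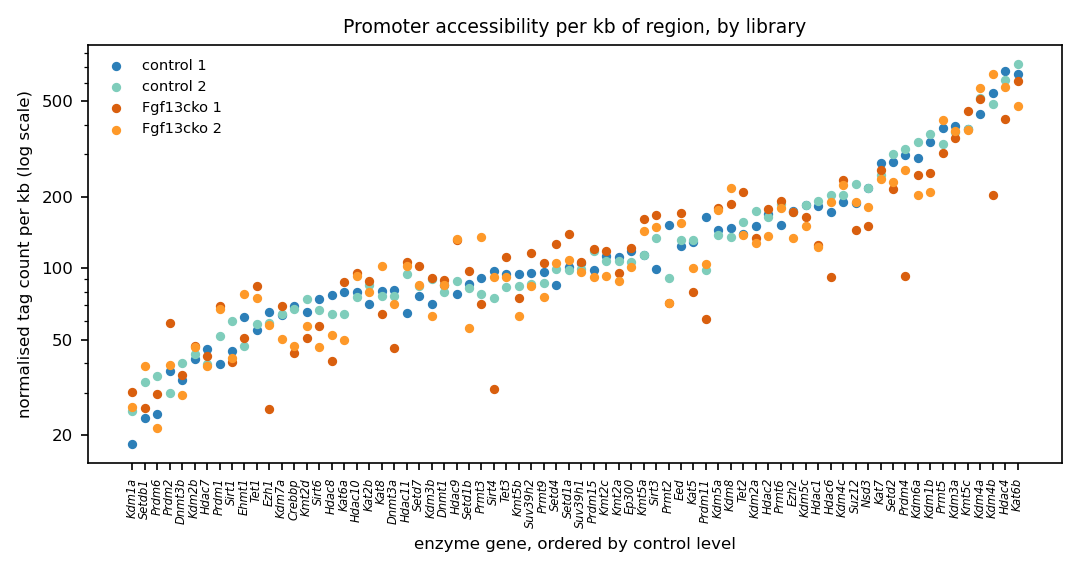
Normalised tag count per kb of promoter region (log axis) for 72 enzyme genes with a promoter region, ordered by their control mean, with 1 point per library. Levels run from 21.8 at Kdm1a to 684 at Kat6b in the controls, and Fgf13cko replicate 1 drops below the other 3 libraries at narrow regions such as those of Prdm4 and Kdm4b.

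In sequence, the promoters differed little in composition from the other open promoters. RefSeq start sites inside a measured promoter region were found for 58 enzyme genes among 8345 genes (GRCm38.p6), and a window of 250 bases before to 50 bases after the start was read. Median GC content was 63.3% against 62.0% over all 8345, with 24 against 22 CpG dinucleotides. The GC box GGGCGG, bound by SP and KLF factors, was found on either strand in 63.8% of the enzyme promoters and 69.9% of all, and CCAAT in 48.3% against 39.9%. TGANTCA, the AP-1 motif, occurred in 8.62% against 4.21%, which is 5 promoters. CCGGAAG (ETS) was in 19.0 against 18.5%, CACGTG (E-box) in 8.62 against 10.5%, AAGATGGC (YY1) in 5.17 against 4.76%, CGCATGCG (NRF1 core) in 3.45 against 4.28%, TGACGTCA (CRE) in 3.45 against 3.65% and TATAAA in 3.45 against 5.80%. A match is a description of letters and not evidence of binding.

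The upstream windows of 4 genes are shown because the comparisons turn on these genes. Kdm1b and Kdm6a had the lowest p-values among demethylase genes with lower promoter sums. The deacetylase gene Hdac1, also lower, had a smaller p-value than Kdm6a and is not shown. Hdac9 had the lowest p-value among higher promoter sums, and Kat2b the most strongly supported distal gain. Each window is the 250 bases before the start on the gene's own strand, with GGGCGG or its reverse complement in capitals. Kdm1b lies at chr13:47043249-47043498 on the plus strand, Kdm6a at chrX:18162325-18162574 on the plus strand, Kat2b at chr17:53566721-53566970 on the plus strand and Hdac9 at chr12:34528890-34529139 on the minus strand.
Kdm1b: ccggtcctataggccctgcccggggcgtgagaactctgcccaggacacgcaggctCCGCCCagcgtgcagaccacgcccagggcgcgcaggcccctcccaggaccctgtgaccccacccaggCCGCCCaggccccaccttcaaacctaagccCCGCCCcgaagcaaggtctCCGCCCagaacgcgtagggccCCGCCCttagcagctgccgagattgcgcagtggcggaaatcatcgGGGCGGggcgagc
Kdm6a: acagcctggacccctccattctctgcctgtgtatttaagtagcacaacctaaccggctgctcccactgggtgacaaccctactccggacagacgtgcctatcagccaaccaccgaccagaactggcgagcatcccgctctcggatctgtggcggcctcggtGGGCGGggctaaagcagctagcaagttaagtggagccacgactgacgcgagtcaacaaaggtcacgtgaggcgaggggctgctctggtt
Kat2b: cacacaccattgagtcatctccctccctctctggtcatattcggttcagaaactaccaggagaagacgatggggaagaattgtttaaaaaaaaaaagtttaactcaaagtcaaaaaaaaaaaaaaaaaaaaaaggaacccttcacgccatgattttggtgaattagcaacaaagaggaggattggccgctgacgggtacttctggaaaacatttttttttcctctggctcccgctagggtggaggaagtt
Hdac9: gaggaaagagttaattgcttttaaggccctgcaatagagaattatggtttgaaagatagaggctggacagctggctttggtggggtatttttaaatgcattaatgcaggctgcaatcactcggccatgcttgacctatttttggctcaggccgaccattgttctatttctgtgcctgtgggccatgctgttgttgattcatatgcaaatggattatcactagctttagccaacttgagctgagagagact
The Kdm1b window holds 6 GC boxes at 71.6% GC and the Kdm6a window 1 at 59.6%. Neither Kat2b, at 40.8% GC, nor Hdac9, at 43.6%, has a GC box in these bases, and the Hdac9 window holds 2 CpG dinucleotides against 22 in that of Kdm1b.

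No promoter of these genes passed the test between Fgf13cko and control. None of the 73 promoter sums rose or fell at an adjusted p under 0.05 in edgeR's quasi-likelihood test, which called 2.55% of all 11117 promoter sums. DESeq2 called none of the 73 and 1.17% of all. Below, values are normalised counts, given for replicates 1 and 2 of each group in turn, and differences are log2 of Fgf13cko over control. At an unadjusted p under 0.05 there were 17, with 7 higher and 10 lower, beside 11.8% higher and 7.58% lower over all promoter sums. Both Fgf13cko libraries lay above both controls for 17 genes and below them for 22, shares of 23.3 and 30.1% beside 26.2 and 25.0% over all promoter sums. The median log2 difference was -0.06 for the enzyme genes and -0.01 for all. The count of calls depended on single libraries and on width, among these genes and across the table. It was 0 without either control, as over all promoter sums (0.00% called). It was 5 without Fgf13cko replicate 1 and 24 without replicate 2, when 10.5 and 24.7% of all were called, with the lone library of a group assumed to vary like the other group. With the width offset 2 of 73 rose, Hdac9 and Kdm8, and 5 fell, Kdm6a, Kdm1b, Kat6b, Crebbp and Prdm4, when 7.61% of all promoter sums rose and 5.99% fell.

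**Figure D2:**
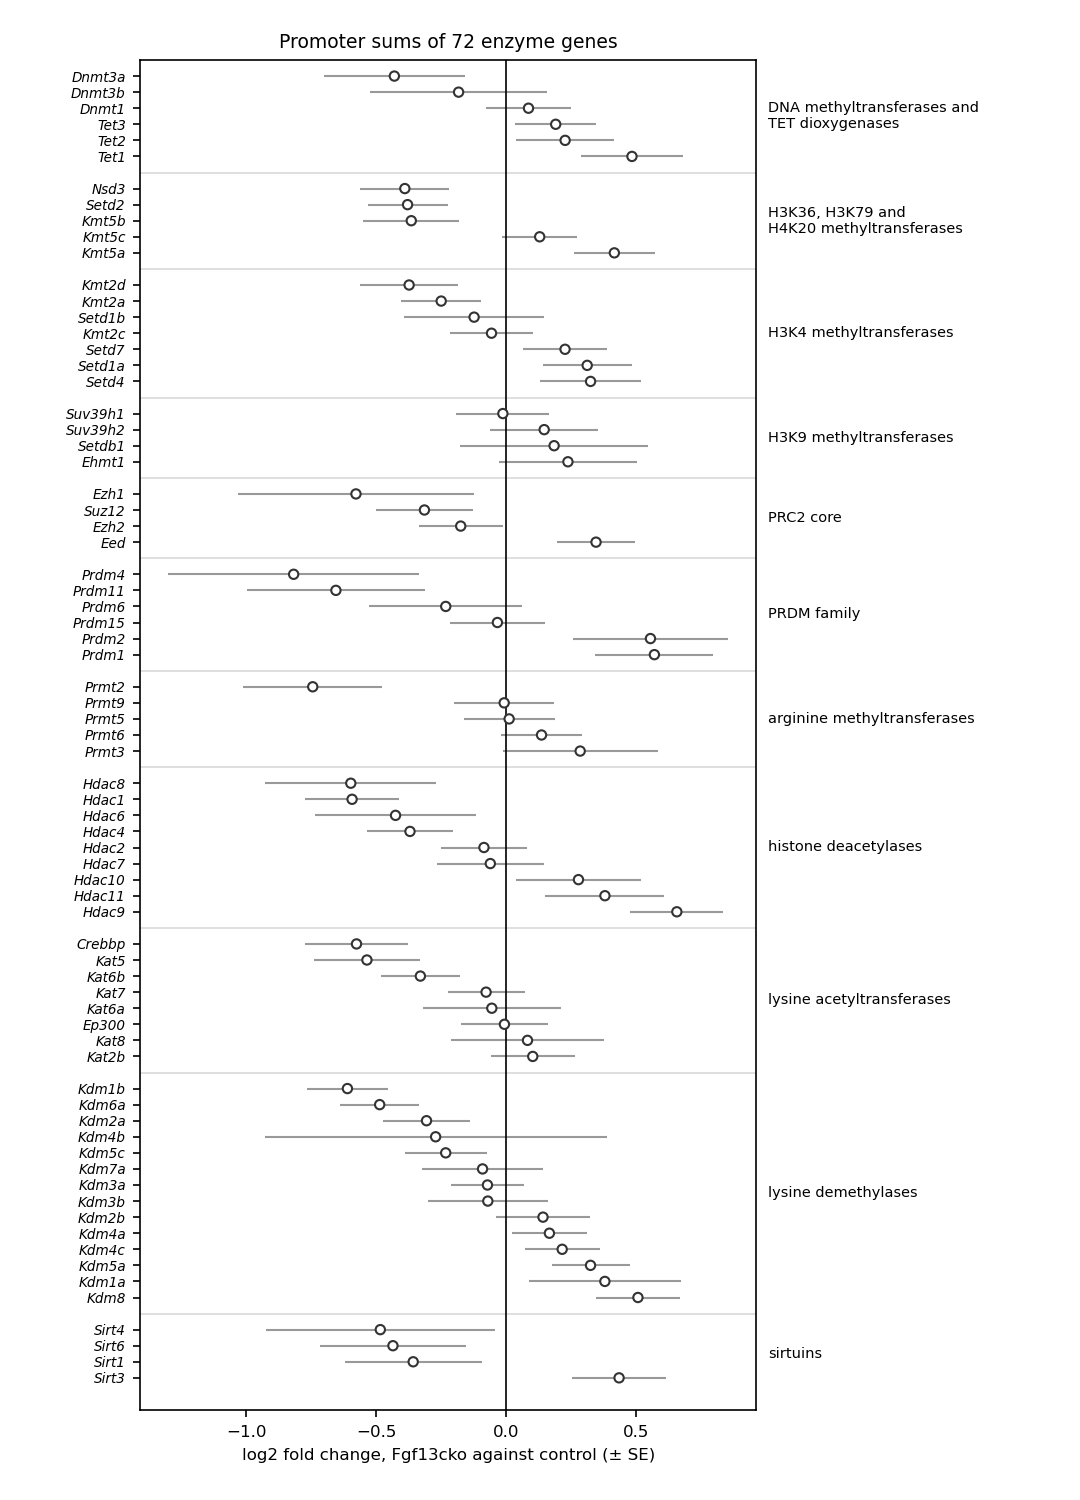
Log2 difference of promoter sums between Fgf13cko and control (points, with the SE as bars) for 72 enzyme genes, grouped by role. Values run from -0.82 at Prdm4 to 0.66 at Hdac9, and no gene passed an adjusted p of 0.05.

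Away from the start sites 5 of the 44 distal sums rose and none fell. Setd3, Kat2b, Sirt4 and Dnmt3aos were among the 5, which are 11.4% of the 44 beside 7.55% of all 8442 distal sums that rose and 4.19% that fell. At an unadjusted p under 0.05 there were 10 higher and 1 lower, beside 16.6% higher and 11.5% lower over all distal sums. Both Fgf13cko libraries lay above both controls for 16 genes and below for 10, beside 29.9 and 29.4% of all distal sums. The median log2 difference was 0.09 against -0.01 over all. Leaving out control 1 left 1 call and leaving out control 2 left 1, Kat2b, when 2.71 and 3.10% of all distal sums were called. Without Fgf13cko replicate 1 and replicate 2, 11 and 23 sums were called, when 27.4 and 43.1% of all were. With an offset fitted on abundance 6 rose and 2 fell, Kdm4b and Kdm6b, beside 7.92 and 6.36% of all. The width offset kept all 5 and gave 7 that rose and 1, Kdm6b, that fell, where 10.5% of all distal sums rose and 8.11% fell.

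**Figure D3:**
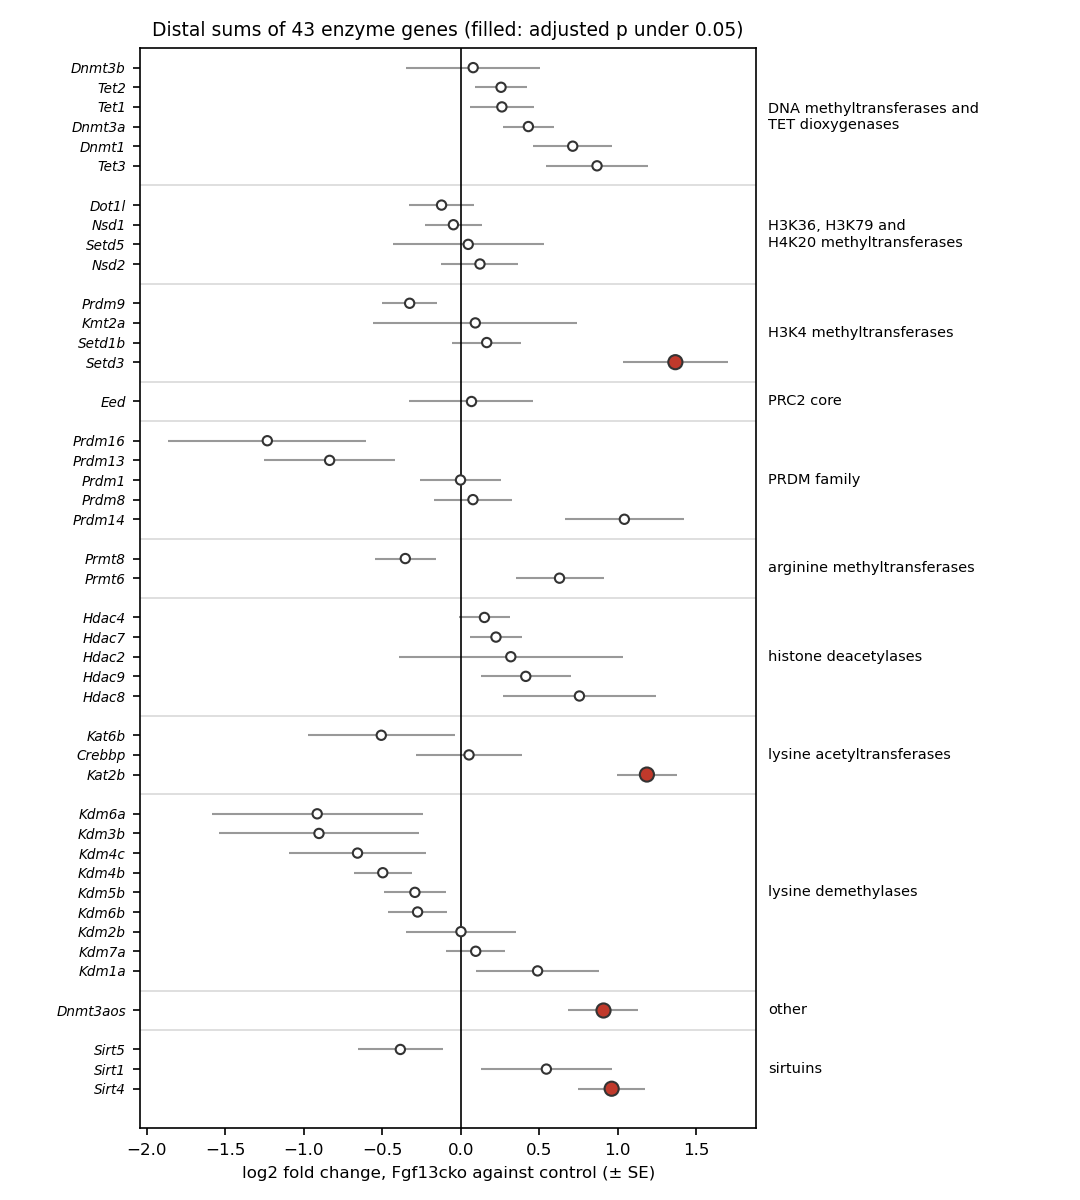
Log2 difference of distal sums between Fgf13cko and control (points, with the SE as bars) for 43 enzyme genes with a distal region, grouped by role. The 4 filled points passed an adjusted p of 0.05, from Dnmt3aos at 0.90 to Setd3 at 1.37. All 6 DNA methyltransferase and TET genes, none of them called, lie to the right of 0, beside 49.1% of all distal sums.

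Tested singly, 9 of the 158 regions rose and none fell, where 5.83% of all 28814 regions rose and 1.83% fell. All 9 were distal. They are 11.0% of the 82 distal enzyme regions, and 8.90% of all 17362 distal regions rose, so the share was near the background. Of the 1679 regions that rose in the whole table, 1546 were distal. At an unadjusted p under 0.05 the enzyme genes had 21 higher and 14 lower regions, beside 14.1% higher and 8.57% lower over all regions. Both Fgf13cko libraries lay below both controls at 26 of the 76 promoter regions, beside 32.1% of all promoter regions. DESeq2 called 5.29% of all regions and 5 of these 9, without those of Setd3 and Hdac4, the one in Dtnb and the Kat2b region nearer the start. Without control 1 a single region was called and without control 2 none, when 1.62 and 0.825% of all regions were. Without Fgf13cko replicate 1 there were 44 and without replicate 2 there were 58, beside 24.1 and 34.8% of all. The abundance offset gave 12 that rose and 9 that fell, beside 7.58 and 4.34% of all. The width offset kept all 9 and gave 23 in each direction, when 14.9% of all regions rose and 13.1% fell. With it 22 of the 23 that rose were distal and 20 of the 23 that fell were promoters, and over all regions 87.3% of those that rose were distal and 55.4% of those that fell were promoters.

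**Figure D4:**
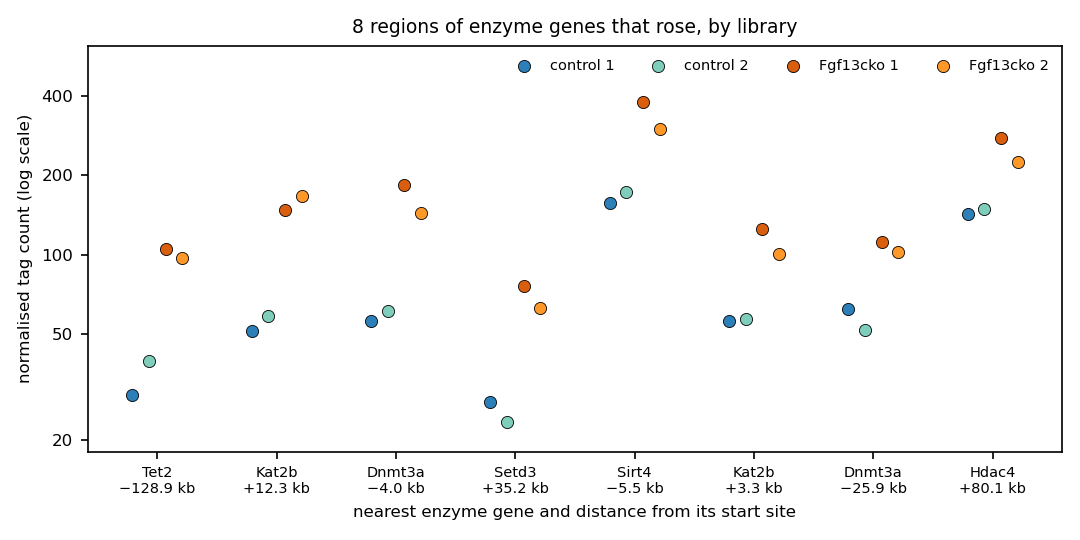
Normalised tag count (log axis) in each of the 4 libraries for 8 enzyme-gene regions that rose, labelled with the gene and the distance from its start site. Both Fgf13cko libraries lie above both controls at every region, and the highest control and lowest Fgf13cko library come closest, as a ratio, at Hdac4, with 149.7 against 224.

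The distal regions were assigned to the nearest start site, which does not show which gene they serve. The centres of 43 of the 82 lay inside the body of the gene they were named for, 17 inside another gene only and 22 in no gene of RefSeq. Their median distance from the start was 22102 bases, against 35468.5 over all distal regions, and 9 lay more than 100 kb away. In 6 cases the region held an outer end of its own gene as RefSeq draws it: Hdac4, Nsd2, Prdm8, Prdm9, Sirt4 and Sirt5. Under another gene model such a region would count as a promoter.

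Among the genes that act on DNA methylation, none of 6 promoters and none of 6 distal sums passed the test. All 6 distal sums had higher means in Fgf13cko, beside 49.1% of all distal sums. The maintenance methyltransferase gene Dnmt1 had promoter sums of 148 and 138 in the controls and 156 and 148 in the Fgf13cko libraries, and the groups overlapped. Its distal region in intron 1 had 77.8 and 67.5 in the controls and 138 and 101 in the Fgf13cko libraries, a log2 difference of 0.71 ± 0.25 (SE) with an adjusted p of 0.0923. Tet3, encoding a 5-methylcytosine dioxygenase, had distal sums of 27.3 and 29.7 in the controls and 52.4 and 51.9 in the Fgf13cko libraries, with no overlap and an adjusted p of 0.115. In 5 of the 6 distal sums both Fgf13cko libraries lay above both controls, beside 29.9% of all distal sums. The exception was Dnmt3b at 0.08. Promoter sums were mixed: Tet1 had 75.1 and 79.3 in the controls and 115 and 102 in the Fgf13cko libraries and the highest value of the group, 0.48 ± 0.20 (SE), whereas the de novo methyltransferase gene Dnmt3a had 70.2 and 66.1 in the controls and 40.0 and 61.2 in the Fgf13cko libraries, at -0.43 ± 0.27 (SE). Tet2, Tet3 and Dnmt3b stood at 0.23, 0.19 and -0.18, with overlapping groups.

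The Dnmt3a locus held 10 regions, 8 named for Dnmt3a and 2 for Dnmt3aos, and 2 rose, beside 5.83% of all regions. The region at chr12:3887306-3888272, in intron 6 of Dnmt3a, had 56.3 and 61.4 in the controls and 184 and 144 in the Fgf13cko libraries, a log2 difference of 1.47 ± 0.22 (SE) with an adjusted p of 0.00659. It lies 3955 bases before the Dnmt3a start that the table uses for it, and also overlaps the gene model Gm31623. The other, at chr12:3780428-3781799, lies in a non-coding exon of the neighbouring gene Dtnb and had 62.2 and 51.9 in the controls and 112 and 103 in the Fgf13cko libraries, at 0.91 ± 0.22 (SE) with an adjusted p of 0.042. Both regions of Dnmt3aos lie within introns of Dnmt3a and were higher in both Fgf13cko libraries, at 1.03 and 0.93, and their sum of 81.8 and 83.7 in the controls and 177 and 134 in the Fgf13cko libraries rose by 0.90 ± 0.22 (SE) on the log2 scale with an adjusted p of 0.0292. A region of intron 1, at chr12:3833757-3835242, had 139 and 149.7 in the controls and 153 and 127 in the Fgf13cko libraries and differed by -0.05.

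Tet2 had 6 distal regions, and beside 8.90% of all distal regions 1 of them rose. It lies at chr3:133672831-133673735, 128893 bases before the start in intergenic sequence that the table annotates as an LTR33B retrotransposon, and had 29.6 and 39.8 in the controls and 105 and 97.5 in the Fgf13cko libraries. The log2 difference was 1.53 ± 0.26 (SE) with an adjusted p of 0.0101. An intronic region at chr3:133482731-133483289 had lower values in Fgf13cko, with 50.3 and 50.2 in the controls and 12.5 and 25.2 in the Fgf13cko libraries, at -1.40 ± 0.42 (SE) and an adjusted p of 0.0795. It is 559 bases wide. Summed over the 6, the distal values were 537 and 505 in the controls and 682 and 565 in the Fgf13cko libraries and the groups did not overlap, with a log2 difference of 0.26.

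Among genes for H3K4 methyltransferases, which mark promoters and enhancers, 1 of 4 distal sums rose, beside 7.55% of all distal sums. None of 7 promoters was called, beside 2.55% of all promoter sums. Setd3, named for its SET domain and known chiefly as the methyltransferase of actin histidine, has a single distal region, at chr12:108143678-108144402 in intron 6. It had 27.6 and 23.4 in the controls and 76.4 and 62.9 in the Fgf13cko libraries as a single region, at 1.45 ± 0.31 (SE) with an adjusted p of 0.0236, and as a distal sum 1.37 ± 0.34 (SE) with an adjusted p of 0.0281. Both Fgf13cko values lay far above both controls. DESeq2 gave this distal sum an adjusted p of 0.0516. The promoters of the large MLL-type enzymes had lower Fgf13cko means. Kmt2d had 119 and 135 in the controls and 92.3 and 104 in the Fgf13cko libraries, at -0.37 ± 0.19 (SE). Kmt2a had 215 and 206 in the controls and 183 and 169.9 in the Fgf13cko libraries, at -0.25 ± 0.15 (SE), and the groups were separate for both. Kmt2c differed by -0.06, with overlap. Setd1a, a SET1-type enzyme, differed by 0.31, Setd4 by 0.32 and Setd7 by 0.23, each with both Fgf13cko libraries above both controls, and none passed the test. Over all promoter sums 26.2% lay above with separate groups and 25.0% below. Prdm9, whose product marks meiotic recombination sites, had 214 and 222 in the controls and 174 and 175 in the Fgf13cko libraries at a region holding one of its RefSeq starts.

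None of the 8 promoters of the repressive H3K9 methyltransferase and PRC2 genes was called. All 4 H3K9 genes had overlapping groups, with Ehmt1 at 0.24, Setdb1 at 0.18, Suv39h2 at 0.15 and Suv39h1 at -0.01. Groups overlapped in 5422 of all 11117 promoter sums. Among PRC2 genes, Eed had 188 and 201 in the controls and 259 and 236 in the Fgf13cko libraries, with no overlap and 0.35 ± 0.15 (SE) (adjusted p of 0.234). Ezh2 had 262 and 259 in the controls and 259 and 202 in the Fgf13cko libraries, and Suz12 152 and 184 in the controls and 118 and 154 in the Fgf13cko libraries, with overlapping groups for both. Of the 4 core genes 3 had lower means and 1 a higher mean, where 49.1% of all promoter sums had higher means. Ezh1 stood at -0.58 ± 0.45 (SE), with 13.3 counts in Fgf13cko replicate 1 against 30.0 in replicate 2 over a region 518 bases wide. The one distal region of this group, at Eed, differed by 0.07 with overlap.

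Enzymes of H3K36, H3K79 and H4K20 differed in both directions, and none of 5 promoters was called. Setd2, which trimethylates H3K36 behind elongating RNA polymerase II, had promoter sums of 219 and 237 in the controls and 170.1 and 181 in the Fgf13cko libraries, at -0.38 ± 0.15 (SE). Kmt5a, the H4K20 monomethyltransferase of dividing cells, had 164 and 165 in the controls and 232 and 207 in the Fgf13cko libraries, at 0.42 ± 0.16 (SE). Both pairs of groups were separate, and the adjusted p-values were 0.2 and 0.168. Nsd3 and Kmt5b lay at -0.39 and -0.36, and Kmt5c at 0.13 with overlap. With the width offset the narrow promoters of Setd2 and Nsd3 lay at -0.29 and -0.28, and the wider one of Kmt5b at -0.48. All 4 distal sums, of Dot1l, Nsd1, Nsd2 and Setd5, had overlapping groups, from -0.12 to 0.12. Groups overlapped in 3438 of all 8442 distal sums.

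None of the 14 lysine demethylase promoters was called, and that of Kdm1b had the lowest adjusted p of all 73 promoter sums. Kdm1b, which removes H3K4 methylation as LSD2, had 324 and 348 in the controls and 240.1 and 199.9 in the Fgf13cko libraries. Both Fgf13cko libraries lay well below both controls, the log2 difference was -0.61 ± 0.15 (SE), and the adjusted p was 0.058. It passed with library size alone (0.0419), with the abundance offset (0.0239), with a stricter count filter (0.0301) and with the width offset (0.000497). It did not pass with DESeq2 (0.122), RLE size factors (0.0562), a 500-base window (0.0743), no low-count filter (0.0563) or the replicate block (0.0738). Its promoter is the GC-box-rich window printed above. Kdm6a, the X-linked H3K27 demethylase, had 501 and 584 in the controls and 424 and 351 in the Fgf13cko libraries, at -0.49 ± 0.15 (SE) with an adjusted p of 0.112. It passed with the abundance offset (0.0419) and the width offset (5.92e-05). It did not pass with DESeq2 (0.153), RLE size factors (0.107), library size alone (0.0791) or the replicate block (0.175). Kdm8 was the counterpart on the higher side, with 167 and 152 in the controls and 209 and 244 in the Fgf13cko libraries, at 0.51 ± 0.16 (SE) with an adjusted p of 0.113. Kdm5a, an H3K4 demethylase, had 191 and 183 in the controls and 237 and 231 in the Fgf13cko libraries, also separate, at 0.32. Kdm1a, with the lowest promoter level per kb, differed by 0.38 ± 0.29 (SE). Of 14 promoters, 6 had higher means, 5 of them with separate groups, and 4 others had both Fgf13cko libraries below both controls. Over all promoter sums 49.1% had higher means, 26.2% lay above with separate groups and 25.0% below.

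None of the 9 distal sums of demethylase genes was called. Of the 9 means 3 were higher, beside 49.1% of all distal sums. In 5 sums both Fgf13cko libraries lay below both controls, beside 29.4% of all distal sums. Kdm4b, an H3K9 and H3K36 demethylase, had 204 and 213 in the controls and 155 and 142 in the Fgf13cko libraries, at -0.50 ± 0.18 (SE) with an adjusted p of 0.111. Kdm6b, the second H3K27 demethylase and a regulator of neurogenesis, had no promoter region and 5 distal ones summing to 897 and 933 in the controls and 894 and 621 in the Fgf13cko libraries. Replicate 1 of Fgf13cko sat just below the controls and replicate 2 far below, and the sum differed by -0.27 ± 0.19 (SE). Its single region with the lowest adjusted p, 0.0659, lies at chr11:69415313-69415828, 1895 bases before the start, and is 516 bases wide. That region had 108 and 93.5 in the controls and 53.6 and 60.8 in the Fgf13cko libraries, at -0.81 ± 0.23 (SE). The 2 regions next to it on either side, at chr11:69417549-69419549 and chr11:69410599-69411999, differed by -0.14 and -0.40. The order depended on width. With the width offset the 516-base region stood at -0.45 with an adjusted p of 0.143. Of its neighbours, chr11:69410599-69411999 then fell, at -0.53 with an adjusted p of 0.0055, and chr11:69417549-69419549 was not called, at -0.30. Kdm5b lay at -0.29, Kdm4c at -0.66 and Kdm6a at -0.91, the last from 18.2 counts or fewer per library.

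Among acetyltransferase genes 1 of 3 distal sums rose, beside 7.55% of all distal sums. None of 8 promoters passed the test, which called 2.55% of all promoter sums. Kat2b, which encodes the histone acetyltransferase PCAF, had distal sums of 110.1 and 121 in the controls and 286 and 241 in the Fgf13cko libraries, a rise of 1.19 ± 0.19 (SE) on the log2 scale with an adjusted p of 0.00661. Both of its distal regions rose and both lie in intron 1. The region at chr17:53596032-53596835 had 51.3 and 58.8 in the controls and 148 and 167 in the Fgf13cko libraries, at 1.51 ± 0.21 (SE) with an adjusted p of 0.00528. The other, at chr17:53586959-53587843, had 56.3 and 57.1 in the controls and 125 and 101 in the Fgf13cko libraries, at 0.99 ± 0.23 (SE) with an adjusted p of 0.0315. In the authors' peak lists the first had a fold enrichment of 5.99 and 5.80 in the controls and 8.04 and 7.64 in the Fgf13cko libraries. That measure did not separate the groups at every region that rose. At the Hdac4 region it was 5.24 and 4.96 in the controls and 4.82 and 5.11 in the Fgf13cko libraries. The Sirt4 region had 5.09 and 4.76 in the controls and 5.17 and 5.01 in the Fgf13cko libraries. At the remaining regions that rose both Fgf13cko libraries lay above both controls. The Kat2b promoter, by contrast, had 180.4 and 217 in the controls and 226 and 202 in the Fgf13cko libraries with overlapping groups.

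Crebbp, the CBP coactivator gene, had 106 and 103 in the controls and 67.8 and 72.8 in the Fgf13cko libraries, at -0.58 ± 0.20 (SE) with an adjusted p of 0.138. Its paralogue Ep300 had 189 and 169 in the controls and 195 and 162 in the Fgf13cko libraries, with overlap, at -0.01. Kat5, the TIP60 gene, had 106 and 109 in the controls and 65.6 and 83.2 in the Fgf13cko libraries, at -0.54 ± 0.20 (SE), and Kat6b, the most open promoter of the set per kb, differed by -0.33 ± 0.15 (SE). These 3 promoters, Crebbp, Kat5 and Kat6b, had both Fgf13cko libraries below both controls, and no acetyltransferase promoter had them above. Over all promoter sums 25.0% lay below and 26.2% above. With the width offset Crebbp and Kat6b passed, at log2 differences of -0.68 and -0.43. DESeq2 called neither, with adjusted p-values of 0.578 and 0.326.

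Deacetylase promoters differed in both directions, and none of the 9 was called. Hdac9, which encodes a class IIa deacetylase, had 91.7 and 104 in the controls and 153 and 156 in the Fgf13cko libraries, at 0.66 ± 0.18 (SE) with an adjusted p of 0.0733. Hdac1, a class I enzyme of the NuRD, Sin3 and CoREST complexes, had 134 and 139.7 in the controls and 91.2 and 90.1 in the Fgf13cko libraries, at -0.59 ± 0.18 (SE) with an adjusted p of 0.103. The groups were separate for each. Hdac2, the close paralogue of Hdac1, had 239.9 and 233 in the controls and 251 and 194 in the Fgf13cko libraries with overlap. Hdac8 lay at -0.60, Hdac11 at 0.38, Hdac10 at 0.28 and Hdac7 at -0.06. With the width offset the narrow promoters of Hdac1, Hdac8 and Hdac10 lay at -0.44, -0.39 and 0.46, and none of these was called. All 5 distal deacetylase sums, of Hdac2, Hdac4, Hdac7, Hdac8 and Hdac9, had higher means, from 0.15 to 0.76, beside 49.1% of all distal sums. None of the 5 was called.

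Within Hdac4 the regions differed among themselves. The promoter had 519.9 and 479 in the controls and 328 and 445 in the Fgf13cko libraries, at -0.37 ± 0.16 (SE). A region in intron 2, at chr1:92099512-92101046, rose, with 143 and 149.7 in the controls and 278 and 224 in the Fgf13cko libraries, at 0.78 ± 0.19 (SE) and an adjusted p of 0.0443. Another region of that intron, at chr1:92130262-92130997, had 147 and 155 in the controls and 74.1 and 102 in the Fgf13cko libraries, at -0.78 ± 0.22 (SE) with an adjusted p of 0.0647. One more region, at chr1:92195459-92196341, holds the outer end of the gene and had 103 and 111 in the controls and 182 and 153 in the Fgf13cko libraries, at 0.65 ± 0.20 (SE). The values summed to 545 and 566 in the controls and 675 and 560.1 in the Fgf13cko libraries over the 7 distal regions, in which these opposite differences are not visible.

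**Figure D5:**
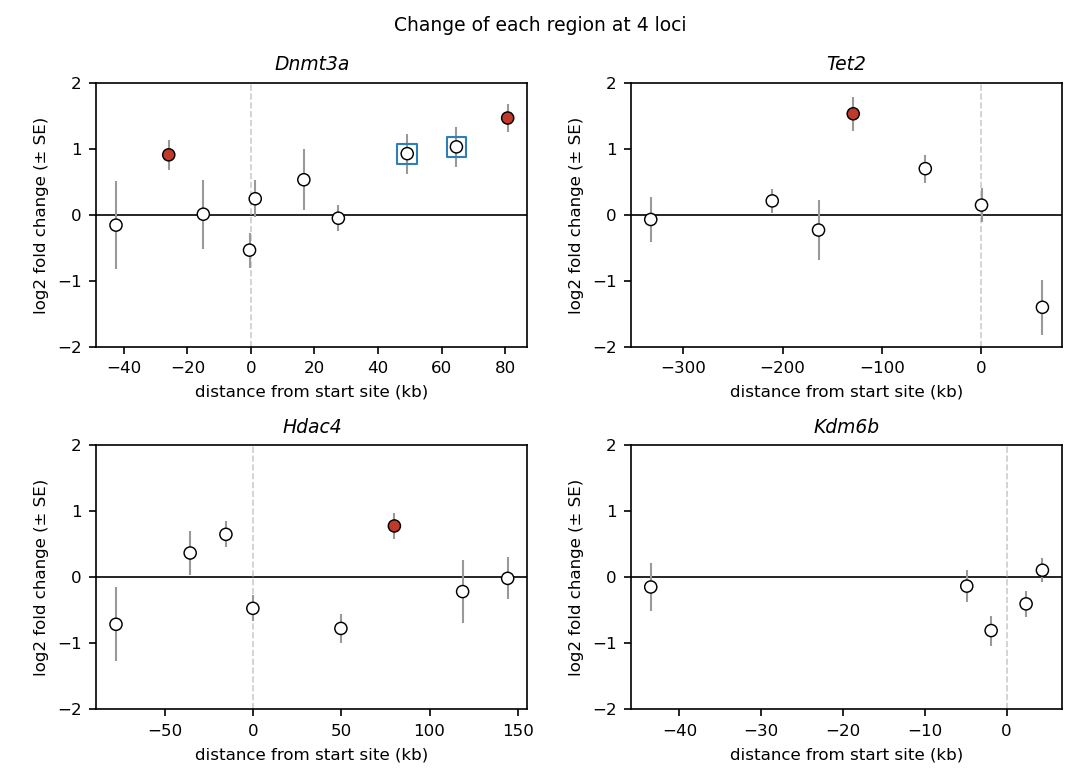
Log2 difference (points, with the SE as bars) of every region at 4 loci against its distance from the start site in kb. Filled points rose at an adjusted p under 0.05, and squares mark the regions named for Dnmt3aos. All distances at the Dnmt3a locus are given from the first Dnmt3a start. Neighbouring regions of Tet2 and Hdac4 lie on both sides of 0, from -1.40 to 1.53 at Tet2.

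Sirtuins are NAD-dependent deacylases of nuclei, cytoplasm and mitochondria. Sirt4, a mitochondrial member, rose at a region 5520 bases before the start the table uses, at chr5:115489228-115490781. It had 157 and 173 in the controls and 378 and 301 in the Fgf13cko libraries, at 1.04 ± 0.20 (SE) with an adjusted p of 0.0166. The table annotates a CpG island there, and the region holds the outer end of Sirt4 as RefSeq draws it. Its promoter sum at the listed start was 58.5 and 45.5 in the controls and 18.9 and 55.5 in the Fgf13cko libraries, with 18.9 counts in Fgf13cko replicate 1 over 602 bases. Sirt3, the main mitochondrial deacetylase, had promoter sums of 120.0 and 163 in the controls and 202 and 181 in the Fgf13cko libraries, at 0.43 ± 0.18 (SE), and Sirt1 and Sirt6 differed by -0.36 and -0.44. None of these 4 promoters was called.

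Arginine methyltransferases add methyl groups to histone and other arginines. Prmt2 had promoter sums of 117 and 70.3 in the controls and 55.6 and 55.5 in the Fgf13cko libraries, at -0.74 ± 0.27 (SE), where control 1 stood far above the other 3 libraries. Its region is 772 bases wide, and with the width offset the difference was -0.63. Prmt5, the main symmetric enzyme, had 312 and 268 in the controls and 246 and 339 in the Fgf13cko libraries, and Prmt3, Prmt6 and Prmt9 overlapped between groups too. The neuron-enriched Prmt8 had no promoter region and distal sums of 169 and 164 in the controls and 138 and 123 in the Fgf13cko libraries, at -0.35 ± 0.19 (SE). Prmt6 had 62.6 and 50.4 in the controls and 98.8 and 76.5 in the Fgf13cko libraries at a single region 348504 bases away. None of the 5 promoters or 2 distal sums was called.

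In the PRDM family no promoter was called. Prdm1 had promoter sums of 50.7 and 67 in the controls and 88.9 and 86.7 in the Fgf13cko libraries, at 0.57 ± 0.23 (SE), and Prdm2 0.55. Prdm4 had 188 and 201 in the controls and 58.9 and 163 in the Fgf13cko libraries, where Fgf13cko replicate 1 stood far below the other 3 libraries, and a log2 difference of -0.82 ± 0.48 (SE). Prdm16, a maintainer of neural stem cells, had only a distal region of 381 bases with 23.2 and 25.2 in the controls and 4.76 and 15.1 in the Fgf13cko libraries, at -1.23 ± 0.63 (SE) (adjusted p of 0.231). Prdm14 and Prdm13 stood at 1.04 and -0.83, each with separate groups and neither called.

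Some family members have no row under their own name. Of 106 RefSeq genes that fit the naming rule, pseudogenes left out, 18 are not named in the table. Of these, 15 could be placed by a start site, and 8 had an authors' peak within 1 kb in all 4 libraries. For 9 of them a tabulated region within 1 kb carries the name of another gene: Prmt1 next to Gm15545, Sirt2 next to Nfkbib, Hdac5 next to Mir8101 and Setdb2 next to Cab39l, for example. Kdm5d and Prdm12 had no peak in any library.

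Partner proteins of these enzymes were examined through 105 genes in 5 lists: COMPASS partners, PRC1 and PRC2 partners, DNA methylation readers and partners, corepressor partners of deacetylases, and other modifying enzymes. Of 78 promoters tested 1 rose and none fell, beside 2.03% of all promoter sums that rose and 0.522% that fell. Of 39 distal sums 1 rose and 2 fell, beside 7.55% and 4.19% of all distal sums. The promoter that rose was Uhrf1, which brings DNMT1 to hemimethylated DNA, with 95.6 and 103 in the controls and 180.1 and 183 in the Fgf13cko libraries. Cbx8, a PRC1 subunit, rose distally with 91.9 and 103 in the controls and 170.1 and 157 in the Fgf13cko libraries. Idh2, a mitochondrial source of the 2-oxoglutarate that TET and KDM enzymes use, fell distally with 129 and 95.4 in the controls and 59.5 and 57.6 in the Fgf13cko libraries, as did the demethylase Phf2 with 189 and 172 in the controls and 95.2 and 104 in the Fgf13cko libraries. These 4 genes were named because they were called, and in each the groups were separate.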

How the data were processed

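The authors deposited a table of 29121 merged regions with estimated counts per library, which per the file headers are raw HOMER tag counts on mm10, and 1 broad peak list per library. The peak lists hold, in the deposited columns, an integer score, a fold enrichment (ratio) and −log10 p and q. HOMER, MACS2, Bowtie2, Picard and DESeq2 appear in the submitters' processing notes without version or role. How duplicates and the Tn5 read shift were treated is not given in the sources used here.

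Counts came in steps of 0.5 and were rounded. The 2 mitochondrial regions were left out, as were 9 regions naming no gene from the sums. Sample titles gave each library's group and replicate number. Promoter sums, distal sums and single regions were each fitted over the whole table with edgeR 4.0.16 (R 4.3.3): filterByExpr, TMM, robust quasi-likelihood, control against Fgf13cko, Benjamini-Hochberg adjustment over all features, threshold 0.05, after a test of the scripts on simulated data. With 2 libraries a group, an exact permutation test cannot go below p = 0.333, so none was used. DESeq2 1.42.0, other scalings and filters, the replicate block and each library left out were alternatives; the crossed block and the width offset, a loess fit on log2 width, were chosen after seeing the data, as were the motifs and printed promoters. Start sites and sequences come from RefSeq (GRCm38.p6); 16 enzyme genes had no start there or none inside a region.

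The members and lists were chosen with earlier results of these data known. Genes named are those called in any measure, up to 4 per role with the smallest p, the 3 highest and lowest promoters, and 22 fixed genes. One gene enters the counts but is not reported here by name or drawn.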

Additional observations from a re-analysis of the deposited data

How the results depend on the processing

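The promoter count, 0 of 73, was also 0 with RLE size factors, DESeq2, no low-count filter, a 500-base window and the replicate block. It was 1 with library size alone, 1 when a mean of 50 counts was required, 2 with the abundance offset and 7 with the width offset. The distal count, 5 of 44, was 8 with the abundance offset and 8 with the width offset, and between 4 and 5 with RLE, library size alone, DESeq2, either filter, the 100-kb limit and the replicate block. The region count, 9 of 158, was 5 with DESeq2, 21 with the abundance offset, 18 when a mean of 50 counts was required, and 46 with the width offset; RLE, library size alone, no filter and keeping mitochondrial regions gave 9 or 10. Leaving out 1 library gave 0 to 24 promoter sums, 1 to 23 distal sums and 0 to 58 regions. The distal sums of Kmt2a and Setd5 changed sign and passed without Fgf13cko replicate 2; leaving out either Fgf13cko library gave -1.45 to 0.79 for Kmt2a and -1.15 to 0.66 for Setd5. The cause of these changes was not tested.

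Replicate numbers did not pair the libraries: deviations of control 1 and Fgf13cko 1 correlated at -0.15 for promoter sums, -0.23 for distal sums and -0.23 for regions. The replicate block gave 0 promoter sums, 5 distal sums and 15 regions. With crossed numbers the block gave 3, 7 and 20. In each library the count of genes with a peak near the start stayed within 1.5 times of the main count at a −log10 q of at least 2 and when the peak had to overlap the start. Of the 15 genes with no promoter region, those with a peak in all 4 libraries went from 4 to 0 when it had to overlap the start, and those with none from 6 to 11.

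Of the values for single genes and regions under settings that keep all libraries, 930 of 957 stayed on the same side of the threshold, and none of the 5 and 9 called values changed direction. With 2.55 to 3.25 M nuclear tags and 2 libraries a group, regions with few counts, such as Kdm6a's distal region, give wide errors.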
